A study of Mus musculus with 16 samples.

Results

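The genes described here are 8 genes of Schwann cells and their myelin, chosen by name from the 23440 genes of the deposited table. They are Mbp and Pmp22 for compact myelin, Prx, Cnp and Mag for its outer, cytoplasmic and axon-facing layers, S100b as a calcium-binding protein widely used to stain Schwann cells, and the factors Sox10 and Egr2. All 8 had a row of their own, and all 8 had reads in every library. Myelinating Schwann cells wrap the axons of peripheral nerves in a compacted membrane sheath, and a sample of whole muscle carries the Schwann cells of the nerve branches that run through it. The sheath is built from a small set of very abundant membrane and adhesion proteins, and in rodents the transcription factors Sox10 and Egr2 (also called Krox20) switch on the genes for many of them.

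RNA came from the gastrocnemius, a calf muscle, of male C57Bl6/J mice aged 20 weeks, and was sequenced from stranded poly(A) libraries. The 4 groups of 4 mice were Il13-/- (KO) trained, KO untrained, wild-type (WT) trained and WT untrained, and trained mice ran daily on a treadmill for 5 weeks. The labels do not say how the Il13 allele was made or whether KO and WT mice were littermates. Levels are RPKM, the reads of a gene scaled to its length in kilobases and to the read total of the library. Reads recovered from these values gave totals between 16307025 and 20074677 per library, so 1 RPKM of a gene 1 kilobase long stood for 16.3 to 20.1 reads. Il13 had 0 reads in each WT library and at most 2 reads in any KO library, below the floor of 3 reads, so the genotype labels could not be checked against it.

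Differences between groups are on the scale of log2(RPKM + 0.1), tested with limma over all genes together, and p was adjusted by the Benjamini-Hochberg method in each comparison. A gene entered this test where it reached 1 RPKM in at least 4 of the 16 libraries, which 10171 genes did. Mbp, Prx, Pmp22, Cnp and S100b passed this filter. Mag, Egr2 and Sox10 did not, and their values come from the same test run without the filter on the 17402 genes with any read. No member passed an adjusted p of 0.05 in any of the 5 comparisons, so the values below are given as levels and differences, with their errors. The comparisons share groups, and their values are not independent of each other. KO untrained 3 stood apart from the other libraries, being the highest of the 16 for 7 of the 8 members, and results that rest on it are given with and without it.

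The levels of the members, which RPKM makes comparable between genes, covered a wide range. Averaged over the 16 libraries, Pmp22 stood at 24.6 RPKM. Mbp followed at 5.98 RPKM, then Cnp at 3.68, Prx at 2.69, S100b at 1.12, Sox10 at 0.827, Egr2 at 0.352 and Mag at 0.349 RPKM. The neighbours in this order overlapped in their range over libraries except Pmp22 and Mbp, whose ranges were 14.8 to 48.8 RPKM and 2.67 to 14.4 RPKM. Mag and Egr2 rested on 7 to 24 and 7 to 35 reads per library, against 475 to 1448 reads for Pmp22.

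The label of these genes was checked against genes of the other myelinating cell, the oligodendrocyte of the central nervous system. Of 7 such genes, Mobp, Opalin and Olig2 were at 0 reads in all 16 libraries, Mog had at most 1 read, and none passed the filter. Their summed level was 0.126 to 0.315 RPKM in KO trained, 0.110 to 0.351 RPKM in KO untrained, 0.143 to 0.360 RPKM in WT trained and 0.154 to 0.231 RPKM in WT untrained libraries, most of it from Sox8, which neural crest cells also use. Pmp22, Cnp and S100b are also made outside Schwann cells, and Egr2 is also an early response gene of immune and other cells. In whole muscle, fewer Schwann cells in a sample and less RNA per Schwann cell cannot be told apart.

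The promoters of Prx, Pmp22, Cnp and S100b, whose levels tracked each other across libraries, are shown as the sequence in front of genes that varied as a group. Mag is beside them because it held a match to a motif of the Sox factors. RefSeq promoters of GRCm38.p6, the mm10 build of the files, were used for 6 of the 8 members. No promoter was used for Mbp, which also varied with this group, or for Sox10. Each run is the 250 bases before the start that lies nearest to the start of the gene in the deposited table. Capitals mark a match to ACAAAG on either strand.
Prx (chr7:27499074-27499323, + strand): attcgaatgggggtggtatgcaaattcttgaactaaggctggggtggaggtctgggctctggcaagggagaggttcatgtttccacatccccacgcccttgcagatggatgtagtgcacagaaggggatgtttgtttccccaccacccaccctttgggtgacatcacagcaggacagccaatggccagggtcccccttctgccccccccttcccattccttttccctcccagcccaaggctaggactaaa
Pmp22 (chr11:63131207-63131456, + strand): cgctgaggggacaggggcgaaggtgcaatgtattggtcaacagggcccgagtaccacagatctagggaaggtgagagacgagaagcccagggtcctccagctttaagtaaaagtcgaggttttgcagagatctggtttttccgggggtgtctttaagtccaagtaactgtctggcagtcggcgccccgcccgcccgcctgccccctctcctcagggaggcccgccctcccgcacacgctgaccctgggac
Cnp (chr11:100574689-100574938, + strand): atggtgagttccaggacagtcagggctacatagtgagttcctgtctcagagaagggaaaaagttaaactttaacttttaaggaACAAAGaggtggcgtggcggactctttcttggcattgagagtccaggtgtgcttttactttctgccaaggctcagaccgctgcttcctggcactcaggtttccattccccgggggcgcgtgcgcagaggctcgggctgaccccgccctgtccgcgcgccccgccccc
S100b (chr10:76253586-76253835, + strand): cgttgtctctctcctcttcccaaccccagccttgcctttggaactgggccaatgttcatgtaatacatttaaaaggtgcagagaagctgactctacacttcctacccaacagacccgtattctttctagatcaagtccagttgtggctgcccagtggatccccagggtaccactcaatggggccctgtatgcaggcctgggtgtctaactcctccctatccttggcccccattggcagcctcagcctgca
Mag (chr7:30914864-30915113, - strand): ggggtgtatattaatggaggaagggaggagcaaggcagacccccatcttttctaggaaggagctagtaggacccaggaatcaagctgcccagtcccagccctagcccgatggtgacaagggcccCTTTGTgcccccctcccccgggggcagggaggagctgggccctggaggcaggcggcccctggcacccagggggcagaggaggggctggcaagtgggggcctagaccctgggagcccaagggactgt
The motifs searched were GCGNGGGCG for EGR factors and ACAAAG and ACAATG for Sox factors, on both strands, with overlapping matches allowed. ACAAAG was present on the strand shown in Cnp, beginning 167 bases before the start, and on the other strand in Mag, beginning 126 bases before the start. It occurs in 16.5% of the 32851 promoters of the same length in that table, ACAATG in 10.7% and GCGNGGGCG in 4.70%, and neither of these last motifs matched in the 6 windows. A match describes letters and does not show binding.

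Mbp (chromosome 18, 82475123 to 82585637, plus strand) encodes myelin basic protein, which holds the cytoplasmic faces of the myelin membrane together. Its level was 4.81, 3.41, 5.11 and 4.74 RPKM in KO trained libraries 1 to 4, against 5.76, 5.32, 14.4 and 7.17 RPKM in KO untrained libraries 1 to 4. In WT trained libraries 1 to 4 it was 10.6, 3.08, 7.71 and 2.67 RPKM, against 5.74, 4.35, 5.15 and 5.68 RPKM in WT untrained libraries 1 to 4. All KO trained libraries lay below all KO untrained ones, KO untrained 3 stood far above every other library, and the WT trained libraries lay on both sides of the WT untrained ones. The log2 difference with training was -0.74 ± 0.40 (SE) in KO mice (adjusted p = 0.423) and -0.024 ± 0.40 in WT mice (adjusted p = 0.990). Without KO untrained 3 the difference in KO mice was -0.43.

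Pmp22 (chromosome 11, 63131510 to 63159546, plus strand) encodes a small membrane protein of compact myelin whose gene dose is critical for peripheral nerve in mouse and human. It had 21.6, 18.3, 24.8 and 22.4 RPKM in KO trained libraries 1 to 4, against 24.9, 24.5, 48.8 and 26.9 RPKM in KO untrained libraries. WT trained libraries had 33.03, 19.2, 30.5 and 14.8 RPKM, against 21.1, 19.5, 19.7 and 24.002 RPKM in WT untrained libraries. KO trained 3 overlapped the KO untrained group, and every KO untrained library lay above every WT untrained one. Training gave a log2 difference of -0.46 ± 0.25 in KO mice (adjusted p = 0.417) and 0.14 ± 0.25 in WT mice (adjusted p = 0.872).

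Prx (chromosome 7, 27499324 to 27520041, plus strand) encodes periaxin, a scaffold that links the outer Schwann cell membrane to the basal lamina through Drp2 and dystroglycan. Its level was 2.42, 1.73, 2.31 and 2.29 RPKM in KO trained libraries 1 to 4, against 2.42, 2.98, 6.17 and 3.16 RPKM in KO untrained libraries. It was 3.96, 1.45, 3.31 and 1.43 RPKM in WT trained libraries, against 2.80, 1.88, 2.37 and 2.41 RPKM in WT untrained libraries. The KO groups did not overlap, but only by the last digits, since KO trained 1 and KO untrained 1 were both at 2.42 RPKM. With training the log2 difference was -0.64 ± 0.32 in KO mice (adjusted p = 0.385) and -0.029 ± 0.32 in WT mice (adjusted p = 0.983). The exons of Prx overlap an antisense gene, Gm15541, in GENCODE M21, and the use of strand in counting is not given in the sources used here.

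Cnp (chromosome 11, 100574939 to 100581739, plus strand) encodes a phosphodiesterase that keeps cytoplasmic channels open within myelin. It had 3.33, 2.68, 3.01 and 3.33 RPKM in KO trained libraries 1 to 4, against 4.11, 3.84, 5.17 and 3.71 RPKM in KO untrained libraries. It had 4.42, 3.21, 3.94 and 2.56 RPKM in WT trained libraries, against 3.97, 3.46, 4.17 and 4.00 RPKM in WT untrained libraries. The KO groups were apart by more than a rounding step, and the WT groups overlapped. With a log2 difference of -0.43 ± 0.14 in KO mice, Cnp had the smallest p of the 8 members in that comparison (unadjusted p = 0.00812, adjusted p = 0.258), and in WT mice the difference was -0.17 ± 0.14 (adjusted p = 0.699). Its exons overlap those of Dnajc7 on the other strand, so that without strand the reads of both could mix.

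Mag (chromosome 7, 30899183 to 30914832, minus strand) encodes an adhesion protein of the innermost myelin layer that faces the axon. It was low, with 0.323, 0.178, 0.512 and 0.264 RPKM in KO trained libraries 1 to 4, against 0.389, 0.419, 0.575 and 0.372 RPKM in KO untrained libraries. It had 0.480, 0.322, 0.328 and 0.208 RPKM in WT trained libraries, against 0.315, 0.165, 0.295 and 0.444 RPKM in WT untrained libraries. The groups overlapped in both genotypes. The spread of Mag within groups was a standard deviation of 0.388 on the scale of log2(RPKM + 0.1). Read counting alone gives 0.372 at its mean read number, but on plain log2 without the added 0.1. That addition narrows the spread of a gene this low, so these values do not show how much of the spread was counting. Across the 16 libraries Mag ran with Pmp22 (Pearson r = 0.77, permutation p = 0.00048, adjusted p = 0.00122). Without the 2 libraries farthest from the median of Pmp22, r was 0.68. The log2 difference of Mag with training was -0.41 ± 0.26 in KO mice (adjusted p = 0.607) and 0.11 ± 0.26 in WT mice (adjusted p = 0.934).

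S100b (chromosome 10, 76253836 to 76261319, plus strand) had the widest range of the 8 members, 9.19-fold between the highest and the lowest library. Its level was 1.05, 0.811, 0.779 and 0.964 RPKM in KO trained libraries 1 to 4, against 1.10, 1.22, 3.10 and 1.15 RPKM in KO untrained libraries. It was 1.81, 0.542, 1.59 and 0.338 RPKM in WT trained libraries, against 0.814, 0.552, 1.19 and 0.922 RPKM in WT untrained libraries. All KO trained libraries lay below all KO untrained ones, and WT trained held the lowest and, after KO untrained 3, the next highest libraries. Training gave a log2 difference of -0.68 ± 0.42 in KO mice (adjusted p = 0.470) and 0.053 ± 0.42 in WT mice (adjusted p = 0.978), and in KO mice it was -0.34 without KO untrained 3.

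Sox10 (chromosome 15, 79154913 to 79164490, minus strand) encodes the factor that Schwann cells need at every stage of their development. It had 0.516, 0.616, 0.572 and 0.748 RPKM in KO trained libraries 1 to 4, against 0.881, 0.928, 1.52 and 0.831 RPKM in KO untrained libraries. It had 1.51, 0.797, 0.698 and 0.600 RPKM in WT trained libraries, against 0.823, 0.760, 0.704 and 0.732 RPKM in WT untrained libraries. The KO groups did not overlap, and all KO untrained libraries also lay above all WT untrained ones. The log2 difference with training was -0.65 ± 0.23 in KO mice (unadjusted p = 0.0111, adjusted p = 0.373) and 0.15 ± 0.23 in WT mice (adjusted p = 0.883). Without KO untrained 3 the difference in KO mice was -0.47.

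Egr2 (chromosome 10, 67537869 to 67542188, plus strand) encodes the zinc finger factor that drives the myelinating state. Its level was 0.378, 0.363, 0.488 and 0.198 RPKM in KO trained libraries 1 to 4, against 0.412, 0.163, 0.471 and 0.418 RPKM in KO untrained libraries. It was 0.372, 0.304, 0.588 and 0.341 RPKM in WT trained libraries, against 0.139, 0.290, 0.443 and 0.268 RPKM in WT untrained libraries. Here the groups overlapped everywhere, and the highest library was WT trained 3 in place of KO untrained 3. With training the log2 difference was -0.0087 ± 0.29 in KO mice (adjusted p = 1) and 0.41 ± 0.29 in WT mice (adjusted p = 0.721). The spread within groups was 0.444 on the log2 scale, against 0.334 from read counting without the added 0.1, so that these values are not on the same scale.

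**Figure D1:**
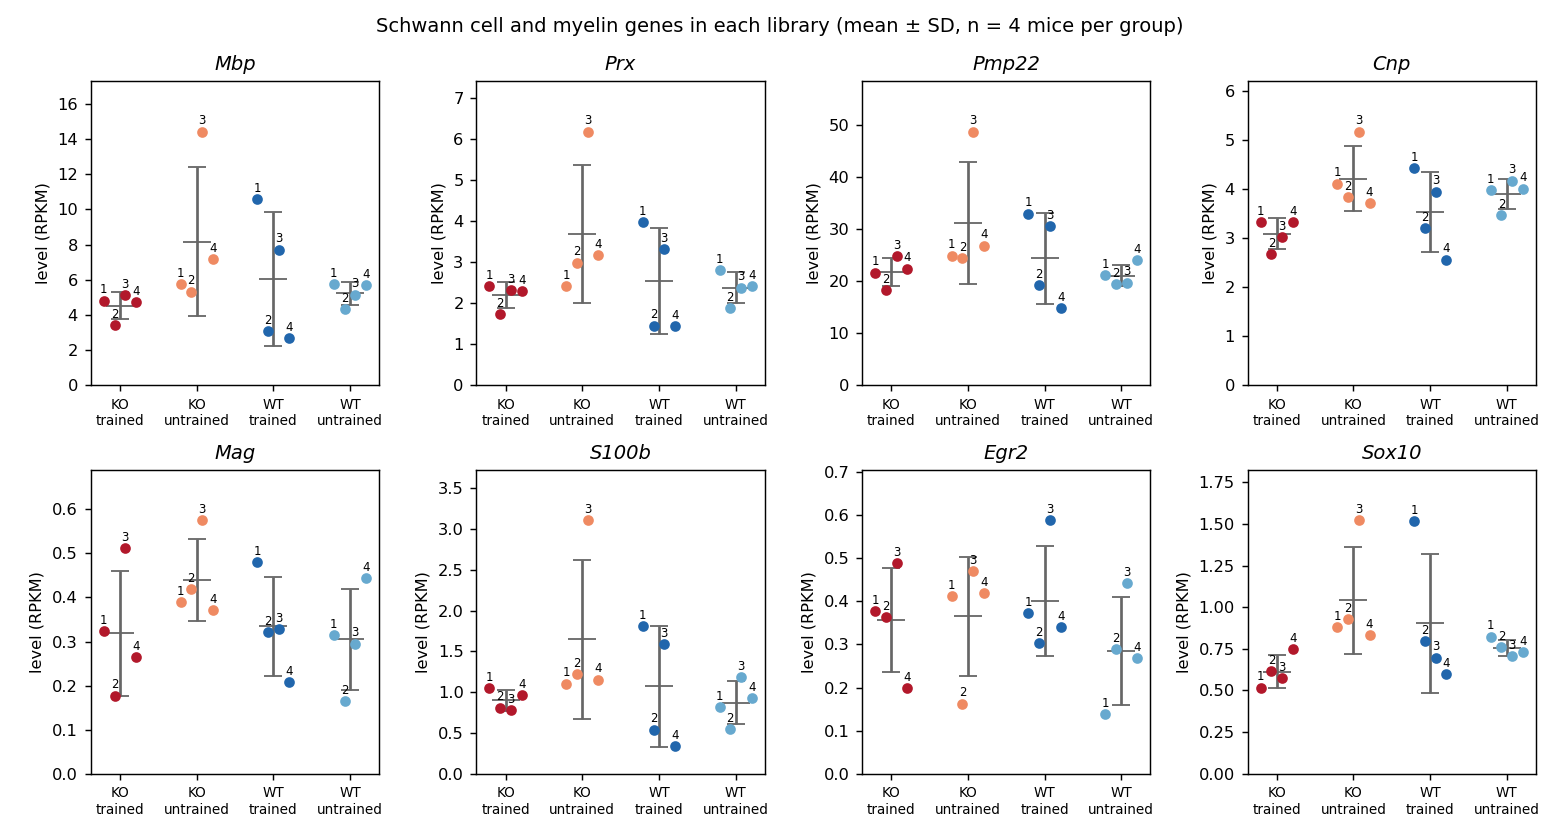
Level of each member in RPKM (vertical axis, from 0) in the 4 libraries of each group (points, numbered by replicate), with the mean and SD of the group (bars, n = 4 mice). KO untrained library 3 is the highest point for 7 of the 8 genes, for example 14.4 RPKM for Mbp, and the WT trained points spread widely on both sides of the WT untrained ones.

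With training in KO mice all 8 members had a log2 difference below 0, between -0.74 for Mbp and -0.0087 for Egr2, where 60.6% of the 17402 genes with any read did. The median over the 8 was -0.55, against -0.043 over those genes. In 5 of the 8 (Mbp, Prx, Cnp, S100b and Sox10) every KO trained library was below every KO untrained one, which held for 3.76% of all genes with any read. Most members varied together across libraries, so counts of members, here and in the other comparisons, are not counts of independent genes. None of the 8 passed the test, and of the 10171 genes past the filter limma called 0 (0%), although 1398 had an unadjusted p under 0.05, and without the filter it called 1 of 17402 (0.00575%). Voom on recovered reads called 0 genes in this comparison, and limma with a weight per library called 97, none of them a member.

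The differences with training in KO mice were smaller without KO untrained 3. The log2 differences were then -0.43 for Mbp, -0.37 for Prx, -0.23 for Pmp22, -0.33 for Cnp, -0.29 for Mag, -0.34 for S100b, -0.47 for Sox10 and 0.11 for Egr2. They were below 0 for all but Egr2. The widest interval, for S100b with all libraries, ran from -1.57 to 0.22, so that it held ratios of trained to untrained level from 0.336 to 1.16.

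Other measures moved with these values, and their part in the result was not tested. The 8 adipocyte markers (Adipoq, Plin1, Cidec, Lep, Cfd, Retn, Fabp4 and Pparg) all had differences below 0 with training in KO mice, with 0 passing the test, and 6 of the 8 were highest in KO untrained 3. Their summed level was 322 to 592 RPKM in KO trained, 397 to 674 RPKM in KO untrained, 385 to 490 RPKM in WT trained and 299 to 454 RPKM in WT untrained libraries, and none of the 8 was at 0 in any group. Of the 6 smooth muscle markers, 5 had differences below 0, and the median over the 6 was -0.43. In 4 (Acta2, Myh11, Tagln and Des) every KO trained library was below every KO untrained one. That held for 3.76% of all genes with any read. The 1 marker with a difference above 0 (0.17) had every KO trained library above every KO untrained one. Of these 6 markers, 0 passed the test (smallest adjusted p = 0.258). Their summed level was 1186 to 1289 RPKM in KO trained, 1328 to 1462 RPKM in KO untrained, 1162 to 1551 RPKM in WT trained and 1351 to 1479 RPKM in WT untrained libraries. That sum was nearly all Des, at a mean of 1249.9 RPKM over the libraries, with Rgs5 next at 44.7 RPKM. Muscle fibres make most of the Des, so the sum is not a level of smooth muscle. The differences were also below 0 for all 4 perineurium genes past the filter (median -0.45), all 6 fibroblast markers (median -0.17), all 5 tendon markers past the filter (median -0.30) and 5 of the 6 skeletal muscle fibre markers (median -0.095), again with 0 passing. Of all genes with any read, 60.6% were below 0. Other lists were mixed, with 4 of 6 endothelial markers (median -0.11) and 5 of 6 macrophage markers (median -0.22) below 0. Of genes past the filter, 3 of 5 neuromuscular junction genes (median -0.041) and 6 of 10 cholesterol synthesis genes (median -0.016) were below 0.

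The share of reads that fell in listed genes was 75.6% to 78.3% in KO trained and 77.2% to 81.7% in KO untrained libraries. It was 83.5%, 76.1%, 78.8% and 76.0% in WT trained libraries 1 to 4, against 79.9% to 83.3% in WT untrained libraries, where the members had no common direction with training. With that share as a covariate, chosen after seeing the data, the log2 difference was -0.24 for Mbp, -0.28 for Prx, -0.17 for Pmp22, -0.21 for Cnp, -0.24 for Mag, -0.091 for S100b, -0.33 for Sox10 and 0.072 for Egr2. The median over the 8 was then -0.22 for training in KO mice, 0.49 for training in WT mice, where all 8 were above 0, and 0.67 for KO against WT in untrained mice, against -0.55, 0.082 and 0.48 without the covariate. For the difference of the responses the median was -0.61 without the covariate and -0.66 with it. For KO against WT in trained mice it was -0.12 without and 0.048 with it. The largest median in size was that of the difference of the responses without the covariate. With the covariate it was that of KO against WT in untrained mice, with the difference of the responses close to it in size. No member passed the test with the covariate.

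Training in WT mice gave no common direction. Of the 8 members, 3 (Mbp, Prx and Cnp) had log2 differences below 0 and 5 above 0, between -0.17 for Cnp and 0.41 for Egr2, with a median of 0.082 against 0.0067 over all 17402 genes with any read. Genes with a difference below 0 were 45.1% of them. The trained and untrained libraries overlapped for every member, where 1.89% of these genes were lower and 3.1% higher without overlap. None of the 8 passed the test, and limma called 19 of the 10171 genes past the filter (0.187%) and 3 without the filter (0.0172%). The ratio of the highest to the lowest library was larger in WT trained than in WT untrained libraries for 6 of the 8 members, for example 3.97-fold against 1.32-fold for Mbp and 5.36-fold against 2.15-fold for S100b, and smaller for Mag (2.31-fold against 2.69-fold) and Egr2 (1.94-fold against 3.19-fold). KO untrained libraries were wide too, at 2.71-fold for Mbp. WT trained 1 and 3 were high and WT trained 2 and 4 were low for Mbp, Prx, Pmp22, Cnp and S100b. The widths were not tested between groups.

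The response to training in KO mice minus that in WT mice was below 0 for all 8 members, where 60.5% of all genes with any read were. The differences between the responses were -0.71 ± 0.56 (log2, SE) for Mbp, -0.60 ± 0.35 for Pmp22, -0.62 ± 0.45 for Prx, -0.26 ± 0.20 for Cnp, -0.73 ± 0.60 for S100b, -0.52 ± 0.37 for Mag, -0.42 ± 0.41 for Egr2 and -0.80 ± 0.32 for Sox10. Adjusted p ran from 0.628 for Sox10 to 0.843 for Egr2, and limma called 0 of the 10171 genes past the filter (0%), with 854 at an unadjusted p under 0.05, and 1 without the filter (0.00575%). Voom on recovered reads called 0 genes here too. Without KO untrained 3 alone, the differences were -0.40 for Mbp, -0.37 for Pmp22, -0.34 for Prx and -0.16 for Cnp. They were -0.40 for S100b, -0.41 for Mag, -0.30 for Egr2 and -0.62 for Sox10, with a median of -0.38. Without KO untrained 3 and WT trained 1, a choice made after seeing the data, the differences were -0.057 for Mbp, -0.20 for Pmp22, -0.087 for Prx, -0.046 for Cnp, -0.073 for S100b, -0.26 for Mag, -0.32 for Egr2 and -0.36 for Sox10. The median was then -0.14.

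Between genotypes, trained KO libraries overlapped trained WT libraries for all 8 members, where 4.12% of the genes with any read were lower and 1.91% higher without overlap. Of the 8 differences, 7 were below 0, against 58.9% of those genes. The log2 differences, KO over WT, lay between -0.42 ± 0.23 for Sox10 (adjusted p = 0.536) and 0.027 ± 0.42 for S100b (adjusted p = 0.982), and limma called 9 genes past the filter (0.0885%) and 6 without it (0.0345%), none of them a member. In untrained mice all 8 differences were above 0, as were 52.8% of the genes with any read, between 0.097 ± 0.14 for Cnp (adjusted p = 0.925) and 0.76 ± 0.42 for S100b (adjusted p = 0.780), and limma called 5 genes past the filter (0.0492%) and 5 without it (0.0287%), again with no member. Every KO untrained library was above every WT untrained one for Pmp22 and Sox10, 2 of 8 members, which held for 1.6% of all genes with any read. The difference for Pmp22 was 0.51 ± 0.25 (adjusted p = 0.780) and 0.27 without KO untrained 3, and that for Sox10 was 0.38 ± 0.23 (adjusted p = 0.827) and 0.20 without that library. Without it the others were 0.21 for Mbp, 0.27 for Prx, -0.0043 for Cnp, 0.33 for Mag, 0.42 for S100b and 0.16 for Egr2, so that 7 of the 8 were above 0, with a median of 0.24 against 0.48 with all libraries.

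**Figure D2:**
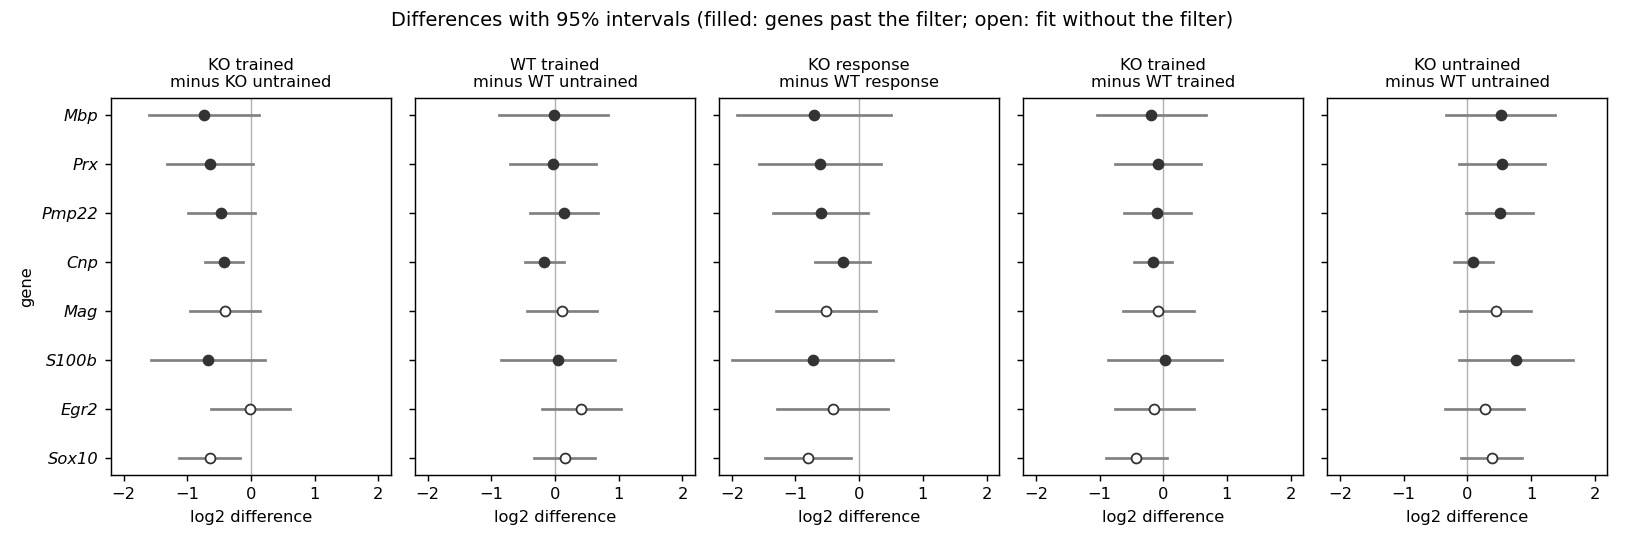
Log2 difference of each member in the 5 comparisons (points) with its 95% interval from limma (lines), for genes past the filter (filled) and from the fit without the filter (open). In the panel for training in KO mice all 8 points lie at or left of 0, and in the panel for training in WT mice they lie on both sides, between -0.17 and 0.41.

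The libraries that were high for one member were high for most of them. KO untrained 3 was the highest of the 16 libraries for 7 of the 8 members, where it was the highest for 9.79% of all genes with any read. The summed level of the 8 members was 80.2 RPKM in that library, against 39.3 to 43.7 RPKM in the other KO untrained libraries. WT trained 1 came next with 56.2 RPKM and was among the top 2 libraries for 6 of the 8 members, though it was the highest for none of them and for 18.9% of all genes with any read. WT trained 4 had the lowest sum, 22.9 RPKM, and was the lowest library for 5 of the 8 members, where it was the lowest for 6.32% of all genes with any read.

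Of 16 other genes of peripheral myelin and its paranodes, KO untrained 3 was the highest library for 13 and WT trained 4 the lowest for 6. These include Mal, Pllp, Cldn19 and Gjb1 of the sheath, Dhh as a Schwann cell signal, and Fa2h, Ugt8a and Gal3st1, which make myelin lipids. Of the 6 that passed the filter, 5 had differences below 0 with training in KO mice, with a median of -0.47, and 0 passed the test in either direction. Mpp6 was the exception, at 20.1 RPKM with a range of 18.2 to 22.3 RPKM over the libraries and a log2 difference of 0.15 ± 0.057 (adjusted p = 0.272). By mean level the next of the list were Arhgef10 with a difference of -0.25, Cadm4 with -0.39, Drp2 with -0.55 and Mal with -0.65 in KO mice.

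**Figure D3:**
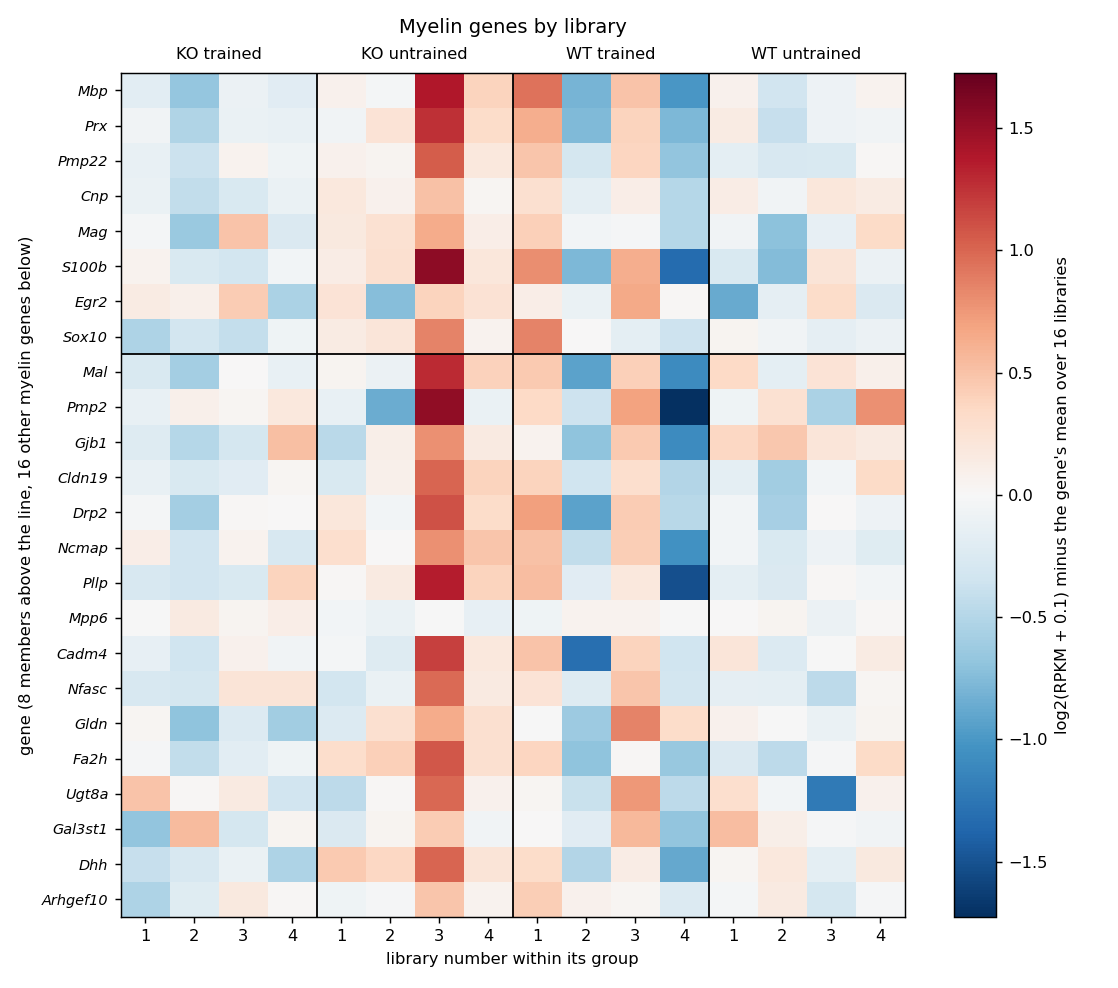
Level of the 8 members (above the line) and 16 other myelin genes (below it) in each of the 16 libraries, as log2(RPKM + 0.1) minus the mean of the gene over the libraries (colour, red above and blue below). The column of KO untrained 3 is red in nearly every row, while the columns of WT trained 1 and 3 are mostly red and those of WT trained 2 and 4 mostly blue.

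The spread of most members within groups was large beside that of other genes. On the log2 scale the standard deviation within groups was 0.599 for Mbp, larger than in 99.1% of the 10171 genes past the filter, whose median was 0.146. It was 0.493 for Prx, larger than in 98.1% of them, 0.380 for Pmp22 (95.4%), 0.661 for S100b (99.3%) and 0.219 for Cnp (77.8%). Read counting alone would give 0.0541 for Mbp, 0.0911 for Prx, 0.0514 for Pmp22 and 0.109 for Cnp, so most of the spread of these genes was not counting error. For S100b counting would give 0.251. The counting values are on plain log2, without the added 0.1.

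Across the 16 libraries the members varied together to differing degrees, Egr2 apart. Of the 21 pairs without Egr2, 21 passed an adjusted p of 0.05 by Pearson r and 17 by Spearman rho. Those that did not pass by rho were Mag with Cnp and Sox10, and Sox10 with Pmp22 and S100b. Mag and Sox10 had the lowest r of the 21, 0.54, with rho = 0.41 (permutation p = 0.117, adjusted p = 0.149). Mbp and Prx had Pearson r = 0.98 and Spearman rho = 0.96 (permutation p = 1e-05 for each, the smallest that 100000 resamples can give, adjusted p = 4.67e-05 and 9.33e-05 over 28 pairs). Without KO untrained 3 and WT trained 1, the libraries farthest from the median of Mbp, r was 0.96. Mbp and Pmp22 had r = 0.95 and rho = 0.91 (permutation p = 1e-05 for each), and r = 0.91 without those libraries. The 10 pairs among Mbp, Prx, Pmp22, Cnp and S100b had r between 0.79 and 0.98, and all 10 passed an adjusted p of 0.05 by both measures.

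Within groups, after the mean of each group was subtracted, the same 10 pairs had r between 0.88 and 0.98. Before that subtraction, Sox10 passed with each of these 5 genes by Pearson r. By Spearman rho it passed with Mbp, Prx and Cnp only. With Pmp22 rho was 0.52 (permutation p = 0.0422, adjusted p = 0.0622). With S100b rho was 0.52 (permutation p = 0.0400, adjusted p = 0.0622). The values that follow are also those before the subtraction. Mbp and Sox10 had r = 0.76 (permutation p = 0.00126, adjusted p = 0.00271) and rho = 0.60 (permutation p = 0.0165, adjusted p = 0.0308), but r = 0.34 without KO untrained 3 and WT trained 1, so that this relation rested on those libraries. Cnp and Sox10 had r = 0.75 (permutation p = 0.00076, adjusted p = 0.00177) and rho = 0.67 (permutation p = 0.00578, adjusted p = 0.0124), and r = 0.77 without the 2 libraries farthest from the median of Cnp. Without the 2 farthest for each gene, r with Sox10 was 0.52 for Prx, 0.54 for Pmp22 and 0.44 for S100b. Mbp and Egr2 had r = 0.29 (permutation p = 0.277, adjusted p = 0.323) and rho = 0.39 (permutation p = 0.141, adjusted p = 0.165), and none of the 7 pairs with Egr2 passed. The low read number of Egr2, 7 to 35 per library, limits what a correlation with it can show.

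**Figure D4:**
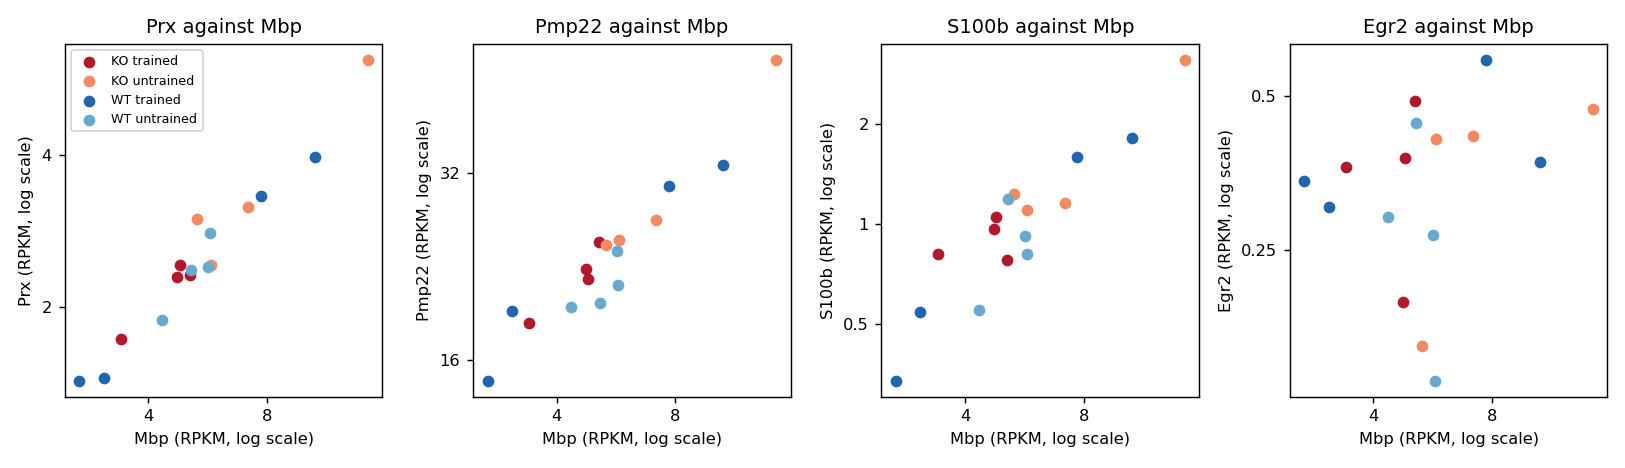
Prx, Pmp22, S100b and Egr2 against Mbp, in RPKM on log scales, with 1 point per library coloured by group. Prx, Pmp22 and S100b climb with Mbp (Pearson r = 0.98, 0.95 and 0.92) between its lowest point at 2.67 RPKM (WT trained 4) and its highest at 14.4 RPKM (KO untrained 3), whereas Egr2 shows no such line (Pearson r = 0.29).

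The genes whose pattern was most like that of the members were found by their correlation, within groups over the 16 libraries, with the mean z score of Mbp, Prx, Pmp22, Cnp and S100b. The 10 nearest of the genes reported here were Mal (r = 0.97), Drp2 (0.92), Zkscan17 (0.90), Aatk (0.90), Pllp (0.89), Ndrg1 (0.88), Plekha4 (0.86), Mapk8ip1 (0.86), Cadm4 (0.84) and Ajuba (0.83). Mal, Drp2, Pllp and Cadm4 were on the list of other myelin genes, Drp2 being the dystrophin-related partner of periaxin and Cadm4 a Schwann cell adhesion protein. Ndrg1, at 11.7 RPKM, is expressed in many tissues and is mutated in a human demyelinating neuropathy. The likeness of Zkscan17 was 0.66 before the group means were subtracted. These values share libraries and depth and are given as a description.

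Among whole lists, 5 of the 6 other myelin genes past the filter had r over 0.5 with the members, where 14.1% of all genes tested did. Of 3 genes of non-myelinating and immature Schwann cells, Lgi4 (r = 0.72) and Erbb3 (0.62), the receptor for neuregulin, passed that mark and Scn7a (0.27) did not. None of 6 neuregulin, GPR126 and myelin regulator genes did, with Dag1, Lamc1, Itga6, Zeb2 and Nab1 between -0.058 and 0.095, and most of these are also made by muscle fibres or vessels. The repair genes Jun (0.061) and Atf3 (-0.38) and the axon genes Uchl1 (0.039) and Stmn2 (-0.081) did not either. In the perineurium list Itgb4, a laminin receptor that Schwann cells also carry, had r = 0.79, and Slc2a1, Cldn1 and Wif1 had 0.30, 0.49 and 0.052.

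Of the cell type lists beside these, the skeletal muscle fibre markers had the highest r as a list, 0.85 for the mean z score of its 6 genes, against 0.91 for the other myelin genes and 0.56 for the adipocyte markers. By single genes, the adipocyte markers had 5 of 8 genes over 0.5, with 0.70 for Retn, 0.57 for Cfd and Cidec, 0.53 for Plin1 and 0.52 for Adipoq, and 0.47 for Fabp4. The fibroblast, endothelial, macrophage, tendon and neuromuscular junction lists had 0 genes over 0.5. In the skeletal muscle fibre list 2 of the 6 genes were over 0.5, Acta1 with 0.67 and Ckm with 0.55. Myh2 had 0.38, Myh1 0.24 and Myh4 -0.16, so the list value did not hold for each of its genes. Des, placed in the smooth muscle list though muscle fibres make most of it, had 0.71. Of 10 cholesterol synthesis genes past the filter, Fdft1 alone was over 0.5, with 0.52. The share of reads in listed genes ran with Cnp (r = 0.74, permutation p = 0.00096, rho = 0.82, permutation p = 0.00023, adjusted p = 0.00768 and 0.00184 over 8 members) and r was 0.81 without the 2 libraries farthest from the median. For the other 7 members the relation with that share did not pass, as for Mbp (r = 0.49, permutation p = 0.053, adjusted p = 0.141, rho = 0.49, permutation p = 0.056, adjusted p = 0.112). After subtracting group means, r with that share was 0.69 for Cnp, 0.65 for Sox10, 0.62 for S100b and 0.58 for Mbp. It was 0.54 for Pmp22, 0.51 for Prx, 0.30 for Mag and 0.13 for Egr2, and these values within groups were not tested.

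**Figure D5:**
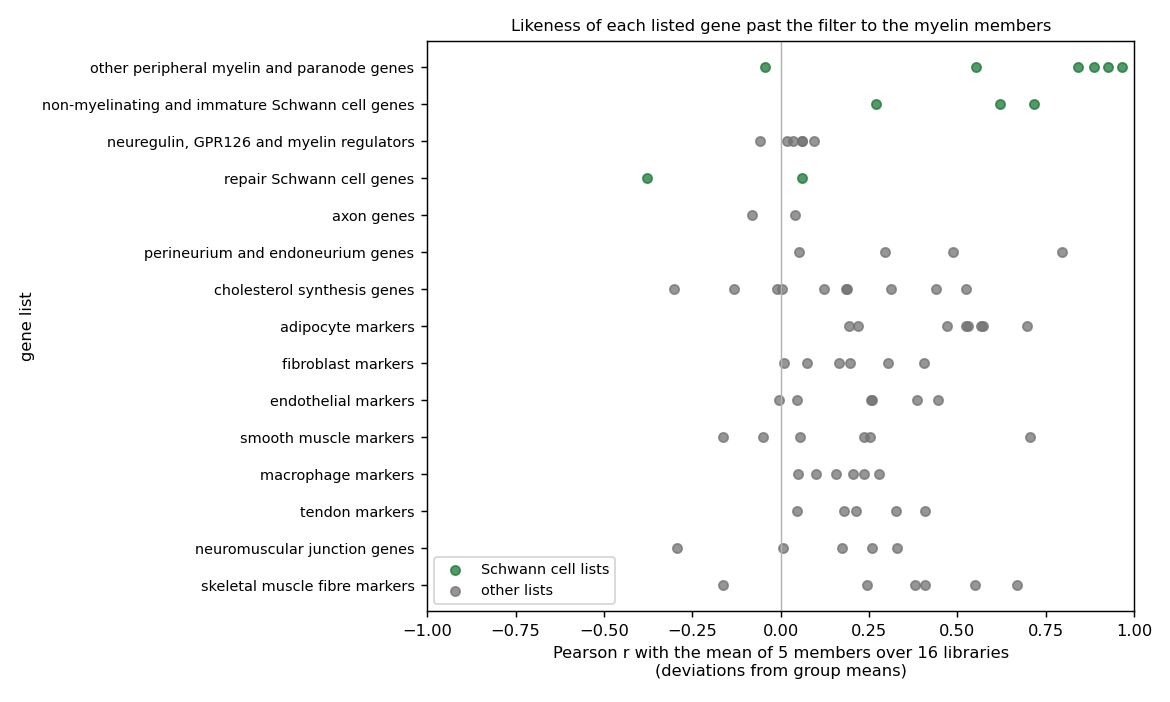
Pearson r (horizontal axis) of each listed gene past the filter with the mean z score of Mbp, Prx, Pmp22, Cnp and S100b, over 16 libraries after subtracting group means, with 1 row per list (Schwann cell lists green, others grey). The other myelin genes lie to the right, between 0.55 and 0.97, apart from Mpp6 at -0.046, and the adipocyte markers lie between 0.19 and 0.70.

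The share of a member in the summed level of the 8 had a smaller coefficient of variation within a group than its own level in 26 of 32 combinations of member and group. The exceptions were Cnp in KO untrained (19.5% for the share, 15.7% for the level), S100b and Sox10 in KO trained, Egr2 in KO untrained and WT untrained, and Sox10 in WT untrained libraries (11.2% and 6.75%). Pmp22, the largest part of the sum, made up 64.5% ± 1.38 of the summed RPKM of the 8 members in KO trained, 61.7% ± 0.697 in KO untrained, 63.1% ± 3.26 in WT trained and 60.6% ± 2.46 in WT untrained libraries (SD, n = 4 each). Mbp made up 13.3% ± 0.812, 15.6% ± 2.01, 14.3% ± 3.80 and 15.001% ± 0.839 in KO trained, KO untrained, WT trained and WT untrained libraries. In WT trained libraries the share of Mbp ran from 10.7% to 18.9%. Cnp, the member with the smallest spread, made up 9.18% ± 0.776, 8.74% ± 1.71, 9.55% ± 1.81 and 11.2% ± 0.757 in the same order of groups. Each member is part of the sum it is divided by, and Pmp22 was most of that sum. A steadier share is therefore partly built in, above all for Pmp22, and is not separate evidence that the members varied together. These shares were not tested between groups.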

How the data were processed

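The authors deposited 1 table of RPKM values for 16 libraries, made from trimmed reads according to their column names (per the file headers). They used genome build mm10 (per the submitters' processing notes). No source used here names an aligner, counter or annotation. Because RPKM is a ratio to length and library total, whole reads per gene and totals were solved from the deposited values (99.9996% of values whole within 0.01 read). A count test had been planned in case of counts, and since the table held RPKM, log2(RPKM + 0.1) was tested with limma 3.58.1 (R 4.3.3; trend, robust, all 4 groups in 1 fit, Benjamini-Hochberg within a comparison, threshold 0.05), after a run on simulated data. Each library is 1 mouse. The 8 members and all gene lists were chosen with earlier results of these data known. Named besides the members were up to 5 genes per list of highest mean RPKM, listed genes at 0 where a cell type was checked, and the 10 genes of most like pattern. A few listed genes are not reported here. Correlations used 100000 permutations of libraries, two-sided. Alternatives were other pseudocounts, no filter, quantile normalization, library weights, voom on recovered reads, only the groups compared, a replicate block, each library left out, and 2 added after seeing the data.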

Additional observations from a re-analysis of the deposited data

Results flagged for a closer look

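Within groups of 4 libraries, 1 library stood apart where the gap to its nearest neighbour took a larger part of the range of the group than Dixon's 95% critical value allows for 4 values. Of 32 combinations tested (the 8 members in 4 groups), 3 met it, and chance gives about 1 in 20. In KO untrained mice, library 3 was that library for S100b (3.10 RPKM, gap over range 0.940), Pmp22 (48.8 RPKM, ratio 0.901) and Sox10 (1.52 RPKM, ratio 0.861). The members vary together across libraries, so that the flags in KO untrained 3 are not independent of each other.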

How the results depend on the processing

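No member passed the test in any comparison under any alternative, the smallest adjusted p being 0.111 (Cnp, training in KO, library weights). Of 385 member values under the alternatives other than leaving out a library, 356 kept their sign and 29 did not, all of them values that had not passed the test. Egr2 with training in KO was 0.081 with quantile normalization, 0.00045 with a pseudocount of 0.01, 0.16 with library weights, 0.054 with voom, 0.072 with the listed-gene share of reads as a covariate and 0.11 without KO untrained 3 and WT trained 1. With training in WT, a pseudocount of 1 gave 0.0084 for Mbp and 0.0042 for Prx, the covariate gave 0.55 for Mbp, 0.39 for Prx and 0.083 for Cnp, and library weights gave -0.015 for Mag, -0.065 for S100b and -0.00282 for Sox10. Without those 2 libraries training in WT gave -0.032 for Pmp22, -0.039 for Mag, -0.27 for S100b and -0.10 for Sox10. For KO against WT in trained mice the covariate gave 0.099 for Mbp, 0.13 for Prx, 0.074 for Pmp22 and 0.021 for Mag, the fit without those libraries gave 0.16 for Mbp, 0.18 for Prx, 0.076 for Pmp22 and 0.075 for Mag, library weights gave 0.024 for Mag, and a pseudocount of 1 gave -0.053 for S100b. In untrained mice Cnp was -0.0043 without those libraries. The cause was not tested.

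With 1 library left out, 350 of 384 member values kept their sign. The ranges of those that crossed 0 were, for training in KO, -0.26 to 0.18 for Egr2. For training in WT they were -0.37 to 0.28 for Mbp, -0.28 to 0.19 for Prx, -0.032 to 0.35 for Pmp22, -0.076 to 0.27 for Mag, -0.27 to 0.44 for S100b and -0.10 to 0.30 for Sox10. For KO against WT in trained mice they were -0.49 to 0.16 for Mbp, -0.29 to 0.18 for Prx, -0.31 to 0.076 for Pmp22, -0.28 to 0.10 for Mag, -0.36 to 0.35 for S100b and -0.28 to 0.048 for Egr2, and in untrained mice -0.0043 to 0.15 for Cnp.

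The count of genes called moved more. For training in KO it was 97 with library weights, 1 without the filter and 1 without both libraries, and 0 to 1 with 1 library left out. For training in WT it was 155 with quantile normalization, 39 with a pseudocount of 1, 35 with only the groups compared, 329 with library weights, 140 with voom, 78 with the covariate, 3 without the filter and 282 without both libraries, and 0 to 272 with 1 library left out, the highest without WT trained 1. For the difference of the responses it was 1 with quantile normalization, 1 without the filter and 0 to 2 with 1 library left out. For KO against WT it was 3 with only the groups compared, 5 with the replicate block and 4 without both libraries in trained mice (2 to 9 with 1 library left out), and 3 with only the groups compared in untrained mice (3 to 5).

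Of 24 pairs of libraries with the same replicate number, 6 had r over 0.1 (-0.18 to 0.44 over all). Between KO trained and KO untrained libraries 3 of the 4 did (0.052 to 0.44), short of every pair, and no label says that a number marks a shared litter or day, so the numbers were not taken to pair the mice. With the replicate block the smallest adjusted p of a member with training in KO was 0.255 (Cnp), and no call of a member changed. Depth limits Mag and Egr2 most, at 7 to 24 and 7 to 35 reads per library.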
